A study of Mus musculus with 12 samples.

Results

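All livers from mice on a high fat diet, with or without N-acetylcysteine, were compared with livers from mice on a normal fat diet, to describe the part of the diet response that both high fat groups carried. The members are the 12 liver RNA libraries of the series, all of which enter the comparison: 8 high fat libraries (4 HFD and 4 NAC_HFD) against 4 NFD libraries. Every mouse was C57BL/6, with an age label of 8 weeks and a feeding time of 14 weeks. NFD mice ate the normal fat diet, HFD mice the high fat diet, and NAC_HFD mice the high fat diet with N-acetylcysteine at 2 g/L in their water. No mouse on the normal diet received N-acetylcysteine, so its action without the high fat diet is not part of the design. The deposited table holds 19252 genes in TPM, the share of each gene's transcripts after correction for length. Tests covered the 11376 genes that reached 1 TPM in 4 or more of the 12 libraries. The floor equals the size of 1 group, so a gene can pass it through the group where it is high: 4 tested genes reached 1 TPM only in NFD libraries (2 called lower) and 58 only in high fat libraries (12 called higher).

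A liver that takes in more fat than it burns or exports stores triglyceride in lipid droplets, and long feeding of fat to mice is a standard way to produce this fatty liver. Hepatocytes take up fatty acids through carriers such as CD36, oxidise them under the nuclear receptor PPARalpha, and pass surplus cholesterol into bile through the ABCG5 and ABCG8 pump. Insulin restrains FOXO transcription factors, receptors such as PXR and CAR set the levels of drug-metabolising enzymes, and N-acetylcysteine is a cysteine source and antioxidant often given against liver injury.

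Hepatocyte RNA was plain in every library: albumin mRNA (Alb) lay between 22101 and 38257 TPM, and 0 of 17 tested hepatocyte markers passed in limma (3 at an unadjusted p under 0.05). The sums of the gene table ranged from 656154 to 713716 TPM, the mitochondrial share of TPM from 8.91 to 12.6%, and the number of genes at 1 TPM or more from 10864 to 11316. On the first principal component, which held 22.5% of the variance, the 4 NFD libraries lay between -21.4 and -14.3 and the 8 high fat libraries between -0.58 (NAC_HFD replicate 2) and 16.4. NFD replicate 3 stood furthest from its group, with a mean correlation of 0.978 with the other NFD libraries. It was the highest NFD library for 39.2% of the genes later called lower, against 32.1% of all tested genes. It was the lowest for 49.5% of those called higher, against 24.7% of all tested genes. Where a call was lost without it, or without another library, the value is given beside the gene.

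In both high fat groups together, 629 of the 11376 tested genes (5.53%) passed an adjusted p of 0.05 in limma against NFD. Of these, 333 (2.93%) were higher and 296 (2.6%) were lower in the high fat livers. The genes called higher had a median log2 fold change of 0.54, and 32 exceeded 1. The genes called lower had a median of -0.46, and 6 were below -1. These fold changes are on the log2(TPM + 1) scale, which understates changes of genes with low levels. In 347 called genes (3.05% of those tested) all 8 high fat libraries lay on one side of all 4 NFD libraries, 186 of them above (1.64%) and 161 below (1.42%). Called or not, 485 of all tested genes (4.26%) showed such a separation, 243 above (2.14%) and 242 below (2.13%). At an unadjusted p under 0.05 there were 2571 genes (22.6%). By sign alone, 5039 of the tested genes had a positive and 6337 a negative log2 fold change.

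The split between higher and lower calls moved with the scaling of the libraries. It was 486 higher and 283 lower after median-of-ratios scaling, and 418 and 337 after quantile normalization. It was 288 and 412 after rescaling within the gene table, and 289 and 379 after rescaling without mitochondrial genes. The median of all tested genes moved by at most 0.03 on the log2 scale under these scalings. The number of calls also depended on single libraries. Leaving out NFD replicate 1 gave 265 calls and leaving out NFD replicate 3 gave 307. With HFD replicate 1 or 4 left out it was 370 or 375, and with NAC_HFD replicate 4 left out it was 399. The labels number the samples within a group but do not say that each came from a separate mouse, and the p-values measure only the spread between these samples. In whole liver RNA, fewer cells of a type and less RNA per cell cannot be told apart.

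Taken one at a time, HFD livers had 316 calls against NFD (2.78%), 249 higher (2.19%) and 67 lower (0.589%). NAC_HFD livers had 601 (5.28%), 200 higher (1.76%) and 401 lower (3.52%). Both comparisons use the same 4 NFD libraries. Among the 333 genes called higher, the median log2 fold change was 0.54 in HFD and 0.49 in NAC_HFD. Among the 296 called lower it was -0.38 in HFD and -0.52 in NAC_HFD. These genes were chosen on the mean of the 2 comparisons, so medians of the same sign follow in part from the choice. Of the 333, 199 were also called higher in HFD against NFD and 179 in NAC_HFD against NFD. Of the 296, only 58 were also called lower in HFD against NFD, and 225 in NAC_HFD against NFD. Over all tested genes the median log2 fold change was 0.01 in HFD and -0.07 in NAC_HFD. The part of this general difference in the counts of lower calls was not tested. The test of HFD against NAC_HFD, which asks whether the diet difference has another size with N-acetylcysteine, called 0 of 11376 genes (0.0%) in limma. Its smallest adjusted p was 0.0515, and 1870 genes (16.4%) had an unadjusted p under 0.05. This 0 was not stable: a pseudocount of 5 gave 24 calls, and leaving out NAC_HFD replicate 1 gave 64.

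The gene with the largest rise was Cyp2b9 (chr7:26173350-26210661), a cytochrome P450 of the Cyp2b family with higher levels in female than in male mouse liver. Cyp2b9 stood at 0.23, 0.39, 0.19 and 1.22 TPM in NFD livers 1 to 4 and between 5.95 and 104 TPM (median 48.3) in the 8 high fat livers. It was close to 0 in every NFD liver, and every high fat liver was above all of them. Its log2 fold change was 4.84 ± 0.67 (SE, adjusted p = 0.00613), with 5.24 in HFD and 4.44 in NAC_HFD. The Cyp2b genes are close copies of one another, so reads may have been shared between them in the authors' quantification.

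Adgrv1 (chr13:81095068-81633391), a very large adhesion receptor known from hearing, stood at 1.37, 0.89, 0.81 and 0.77 TPM in NFD livers 1 to 4 and between 5.17 and 12.4 TPM (median 8.05) in the 8 high fat livers. All high fat livers were above the NFD range, for a log2 fold change of 2.22 ± 0.18 (SE, adjusted p = 4.26e-05) (2.38 in HFD and 2.06 in NAC_HFD). Dio1 (chr4:107291465-107307168), the liver deiodinase that activates thyroid hormone, stood at 27.8, 38.7, 21.1 and 32.3 TPM in NFD livers 1 to 4 and between 74.4 and 119.8 TPM (median 94.8) in the 8 high fat livers. The groups were far apart, with a change of 1.64 ± 0.14 (SE, adjusted p = 4.35e-05) (1.79 in HFD and 1.49 in NAC_HFD). Both kept their calls without any 1 of the 12 libraries, as did Cyp2b9.

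Enzymes and carriers of lipid, nucleoside and acid metabolism were among the leading rises. Car3, a carbonic anhydrase that is abundant in liver, muscle and fat, stood at 855, 808, 391 and 727 TPM in NFD livers 1 to 4 and between 1249.8 and 2061 TPM (median 1822) in the 8 high fat livers. NFD replicate 3 had the lowest Car3 level, and the lowest high fat liver was still above the highest NFD liver. The change in Car3 was 1.37 ± 0.18 (SE, adjusted p = 0.00232), and without NFD replicate 3 the adjusted p was 0.00123. Upp2, a uridine phosphorylase of liver, stood at 125, 98.2, 56.1 and 104 TPM in NFD livers 1 to 4 and between 170.3 and 339 TPM (median 226) in the 8 high fat livers. Its rise was 1.37 ± 0.18 (SE, adjusted p = 0.00232), with 1.10 in HFD and 1.64 in NAC_HFD.

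Acot11, which splits acyl-CoA into fatty acid and coenzyme A, stood at 0.85, 1.06, 0.90 and 1.17 TPM in NFD livers 1 to 4 and between 2.14 and 5.44 TPM (median 3.52) in the 8 high fat livers, a change of 1.20 ± 0.16 (SE, adjusted p = 0.00232). Osbpl5, a lipid transfer protein at membrane contact sites, stood at 0.90, 0.99, 1.08 and 1.80 TPM in NFD livers 1 to 4 and between 2.84 and 4.53 TPM (median 3.96) in the 8 high fat livers, a change of 1.15 ± 0.13 (SE, adjusted p = 0.000728). For both genes, chosen without overlap, the levels were only a few TPM. Slc13a3, a sodium-coupled carrier of dicarboxylates, changed by 1.06 ± 0.12 (SE, adjusted p = 0.000549), with 1.30 in HFD and 0.83 in NAC_HFD. Its HFD libraries (6.98 to 10.9 TPM) all lay above its NAC_HFD libraries (5.25 to 5.89 TPM), and the test between these groups gave an adjusted p of 0.118.

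Secreted and surface proteins made up the rest of the 12 leading genes. Saa4, a constitutive serum amyloid A, stood at 72.7, 83.4, 64.4 and 86.9 TPM in NFD livers 1 to 4 and between 125 and 316 TPM (median 217) in the 8 high fat livers, a change of 1.44 ± 0.22 (SE, adjusted p = 0.0052). Serpina12, the serpin called vaspin, stood at 3.70, 7.13, 4.03 and 3.80 TPM in NFD livers 1 to 4 and between 7.83 and 18.5 TPM (median 9.77) in the 8 high fat livers, a change of 1.10 ± 0.21 (SE, adjusted p = 0.0133). Each rose in all 8 high fat livers, although NFD replicate 2 had a much higher Serpina12 level than the other NFD livers. Wfdc2, a secreted whey acidic protein, changed by 1.11 ± 0.20 (SE, adjusted p = 0.00957) (1.42 in HFD and 0.81 in NAC_HFD). Dsg1c, a desmosomal cadherin, changed by 1.14 ± 0.23 (SE, adjusted p = 0.0175) and did not pass without NFD replicate 3 (adjusted p = 0.0535).

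The largest fall was in Angptl8 (chr9:21835510-21837347), a protein secreted by liver and fat that regulates lipoprotein lipase and is induced by feeding. Angptl8 stood at 163, 177, 98.4 and 153 TPM in NFD livers 1 to 4 and between 11.8 and 85.0 TPM (median 32.5) in the 8 high fat livers. The highest high fat liver was below the lowest NFD liver, and the spread among the high fat livers was wide. Its log2 fold change was -2.08 ± 0.45 (SE, adjusted p = 0.0268), with -1.64 in HFD and -2.52 in NAC_HFD. It did not pass in 6 of the 12 fits that left out 1 library (adjusted p up to 0.0836, without NFD replicate 1). Angptl4, a related inhibitor of lipoprotein lipase and a PPAR target, went the other way, by 1.11 ± 0.28 (SE, adjusted p = 0.0457). Its libraries overlapped, and it did not pass in 10 of the 12 fits that left out 1 library (adjusted p up to 0.104, without NFD replicate 1).

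Cyp2c69 (chr19:39842660-39886769), a cytochrome P450 of the large Cyp2c family, stood at 2.43, 2.42, 1.78 and 2.95 TPM in NFD livers 1 to 4 and between 0.03 and 0.33 TPM (median 0.18) in the 8 high fat livers. It was detected at a few TPM in NFD livers and was nearly absent from all high fat livers. The change of -1.51 ± 0.11 (SE, adjusted p = 1.34e-05) came with values of -1.47 in HFD and -1.55 in NAC_HFD. Cyp2c40, of the same family, fell by 0.91 on the log2 scale (adjusted p = 0.0144) with overlapping libraries, and did not pass without NFD replicate 1 (adjusted p = 0.0507). Cyp2c69 reached the floor of 1 TPM only in the NFD libraries, so its entry into the test rested on the difference, and with no filter on all genes of the table its adjusted p in limma was 5.88e-05. Reads of the Cyp2c copies may have been split by the authors' quantification.

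Amino acid, purine and conjugation enzymes were among the other leading falls. Asl, the urea cycle enzyme argininosuccinate lyase, stood at 319.9, 373, 745 and 340.4 TPM in NFD livers 1 to 4 and between 206 and 272 TPM (median 224) in the 8 high fat livers. NFD replicate 3 was far above the other NFD livers, and those were still above every high fat liver. The change in Asl was -0.84 ± 0.18 (SE, adjusted p = 0.0217), and without NFD replicate 3 it was -0.56 with an adjusted p of 0.0163. Sdsl, a serine dehydratase-like enzyme, stood at 6.17, 4.97, 14.2 and 5.64 TPM in NFD livers 1 to 4 and between 2.71 and 3.30 TPM (median 2.88) in the 8 high fat livers, a change of -1.05 ± 0.19 (SE, adjusted p = 0.0106). It was also highest in NFD replicate 3, and without that library the adjusted p was 0.00222. Aprt, which salvages adenine, stood at 25.0, 26.8, 41.9 and 28.3 TPM in NFD livers 1 to 4 and between 13.8 and 20.4 TPM (median 15.6) in the 8 high fat livers, a change of -0.86 ± 0.13 (SE, adjusted p = 0.00479) with -0.86 in HFD and -0.85 in NAC_HFD.

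Raet1e, a stress ligand of the NKG2D receptor with close copies in the genome, stood at 3.65, 4.83, 4.07 and 7.42 TPM in NFD livers 1 to 4 and between 0.52 and 2.57 TPM (median 1.34) in the 8 high fat livers, a change of -1.34 ± 0.23 (SE, adjusted p = 0.00919). Btg3, of an antiproliferative gene family, changed by -0.97 ± 0.16 (SE, adjusted p = 0.00734). Itga5, the fibronectin receptor subunit, changed by -0.85 ± 0.14 (SE, adjusted p = 0.0055), and Slco2a1, a prostaglandin carrier, by -0.84 ± 0.12 (SE, adjusted p = 0.00369). In these 4 genes, chosen without overlap like the other leading genes, no high fat liver reached the NFD range. Ugt1a8, one of the glucuronosyltransferases that share exons in the Ugt1a cluster, changed by -0.93 ± 0.19 (SE, adjusted p = 0.0165) and did not pass without NFD replicate 1 (adjusted p = 0.0596). Cib3, a small calcium-binding protein, changed by -0.85 ± 0.16 (SE, adjusted p = 0.00957), with -1.16 in HFD and -0.55 in NAC_HFD.

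**Figure D1:**
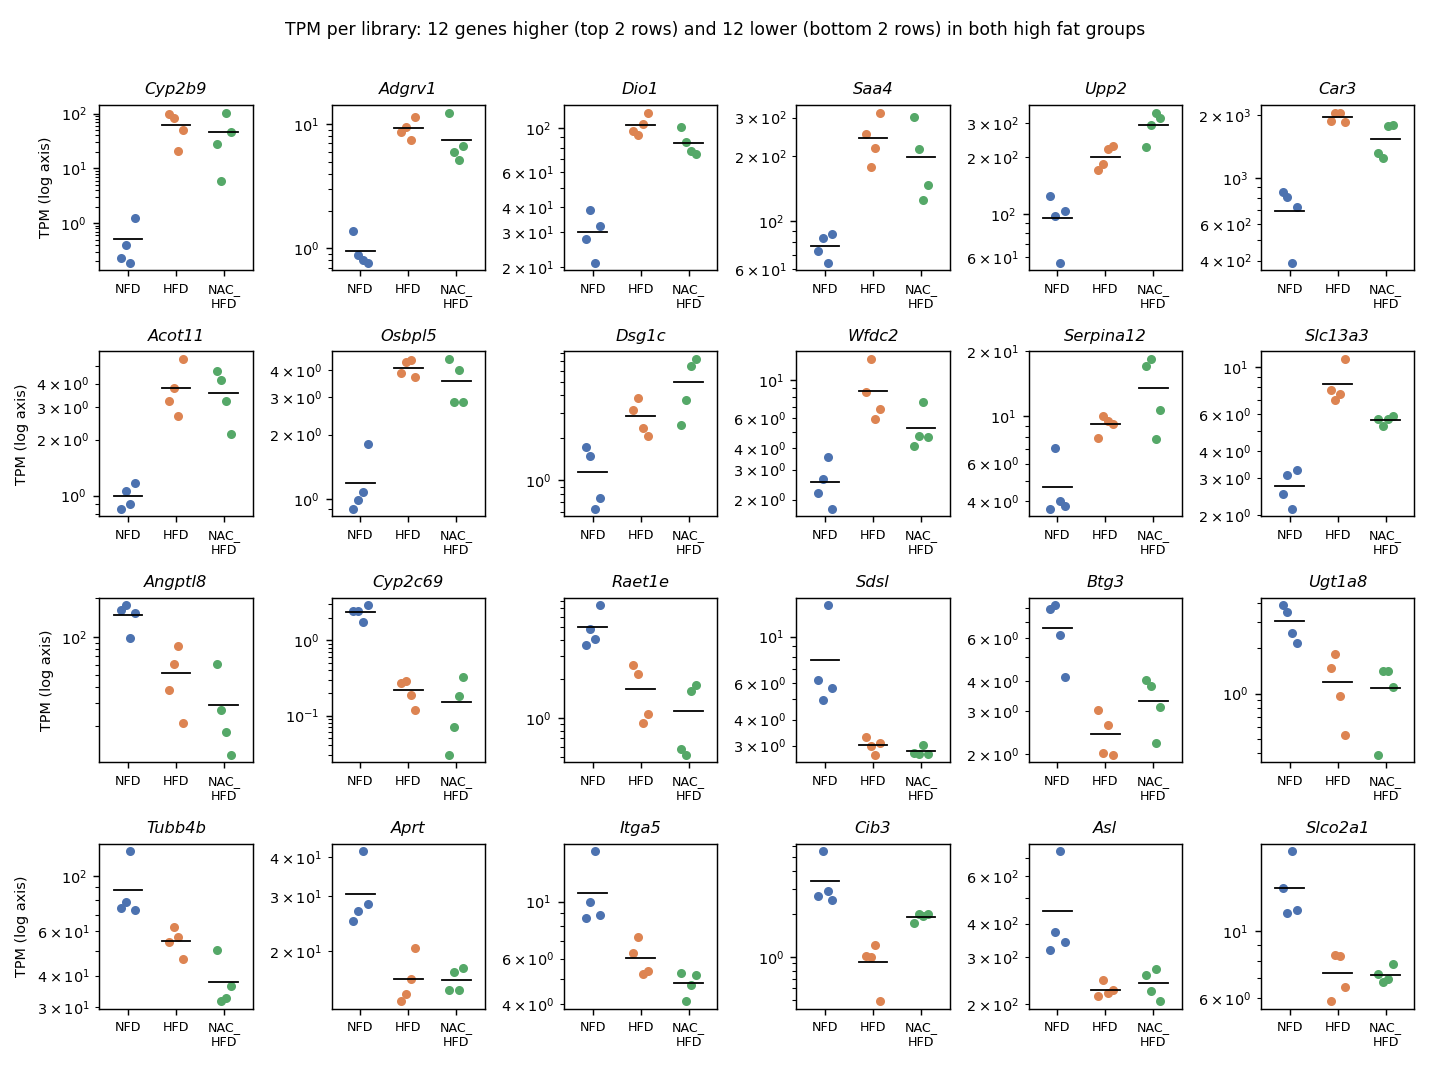
TPM of the 12 genes with the largest rises and the 12 with the largest falls among called genes whose groups do not overlap (log axes; 1 point per library, black line at the group mean; each panel has its own range). In every panel the 8 high fat libraries lie on one side of the 4 NFD libraries, for example Dio1 at 74.4 to 119.8 TPM against 21.1 to 38.7 TPM.

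Among the most abundant called genes without overlap, Car3 and Asl, given above, changed most, and the others changed less. Cat, which destroys hydrogen peroxide in peroxisomes, stood at 1408, 1408, 1142 and 1479 TPM in NFD livers 1 to 4 and between 1597 and 1956 TPM (median 1749) in the 8 high fat livers, a change of 0.38 ± 0.09 (SE, adjusted p = 0.0293). Catalase was higher in each of the 8 high fat livers, but it did not pass in 8 of the 12 fits that left out 1 library (adjusted p up to 0.0778, without NFD replicate 3). Aldh2, the mitochondrial aldehyde dehydrogenase, changed by 0.31 ± 0.08 (SE, adjusted p = 0.0372), and it did not pass in 9 of the 12 fits that left out 1 library (adjusted p up to 0.0965, without NFD replicate 3). Cyb5a, which feeds electrons to desaturases and P450 enzymes, changed by 0.37 ± 0.09 (SE, adjusted p = 0.0238), and it did not pass without NFD replicate 3, NFD replicate 4 or HFD replicate 1 (adjusted p up to 0.0626). Pigr, the receptor that moves immunoglobulin A into bile, changed by 0.44 ± 0.09 (SE, adjusted p = 0.0126), and Ndrg2, a stress-linked gene of differentiated cells, by 0.48 ± 0.11 (SE, adjusted p = 0.0224). Ndrg2 did not pass without NFD replicate 1 (adjusted p = 0.0519).

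On the falling side, Apom, the carrier of sphingosine 1-phosphate on high density lipoprotein, stood at 159, 160.1, 173 and 158 TPM in NFD livers 1 to 4 and between 92.5 and 127 TPM (median 112) in the 8 high fat livers. The NFD livers were tightly grouped above all high fat livers, and the change was -0.57 ± 0.07 (SE, adjusted p = 0.00166) (-0.72 in HFD and -0.43 in NAC_HFD). Mettl7b, a methyltransferase of membranes and lipid droplets, changed by -0.37 ± 0.08 (SE, adjusted p = 0.0165) and did not pass without NFD replicate 1 (adjusted p = 0.0519). Hgd, of tyrosine breakdown, changed by -0.47 ± 0.12 (SE, adjusted p = 0.0423). It was highest in NFD replicate 3 (441 TPM, other NFD livers 267 to 292), and it did not pass in 11 of the 12 fits that left out 1 library (adjusted p up to 0.0749, without NFD replicate 3).

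**Figure D2:**
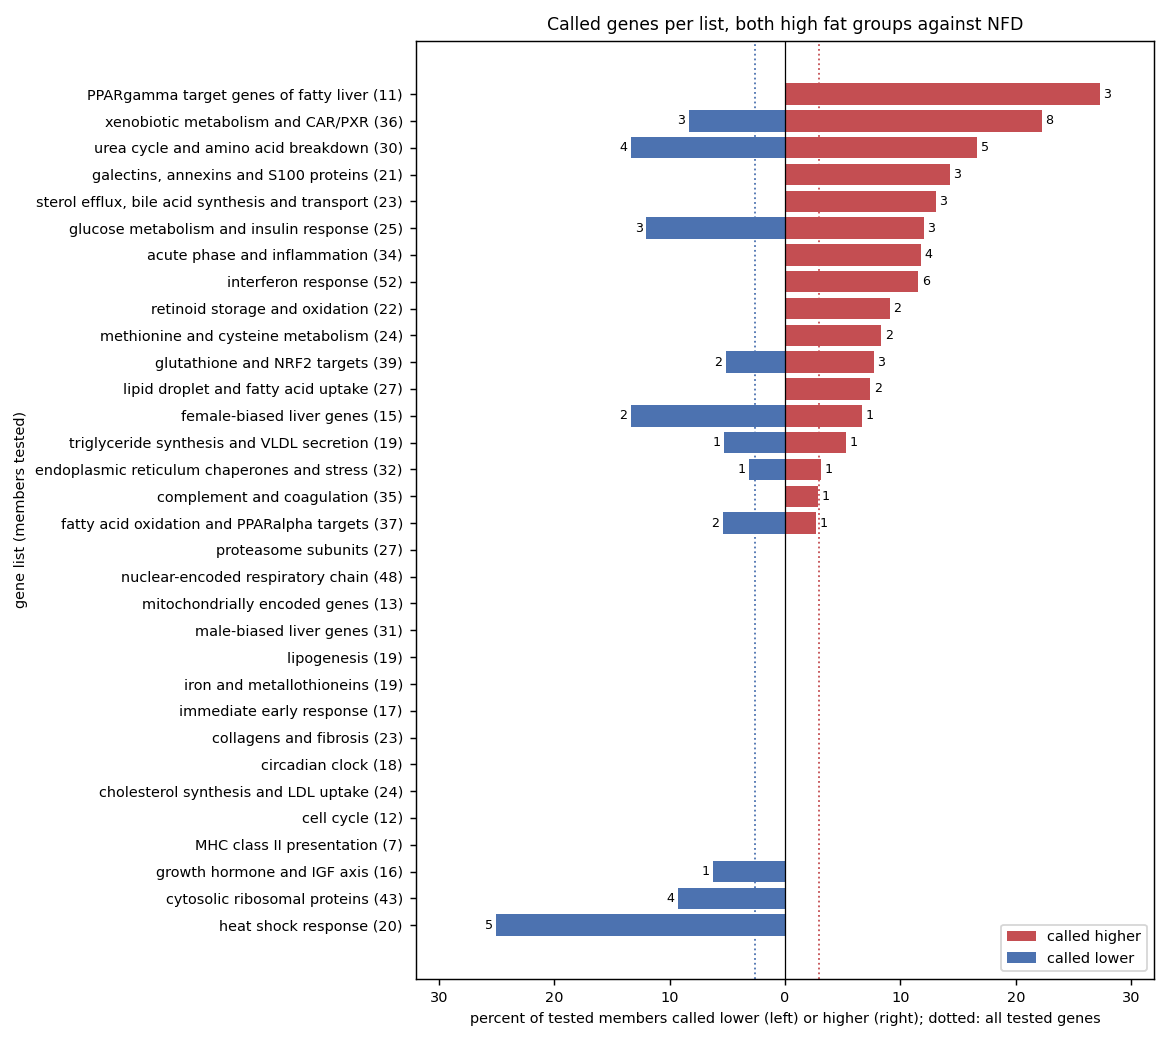
Share of the tested members of each of 32 function lists called higher (right, red) or lower (left, blue) in both high fat groups against NFD; numbers beside the bars count the genes, and dotted lines mark the shares among all tested genes (2.93% higher, 2.6% lower). Heat shock genes reach furthest to the left (5 of 20), while 12 lists show no bar at all.

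Hepatic insulin signalling acts through IRS proteins and restrains FOXO factors, and its list of glucose and insulin response genes held both directions. Of 25 tested members, 3 were higher and 3 lower (2 and 0 without NFD replicate 3), with a median log2 fold change of 0.16 against -0.03 for all tested genes. Foxo1, the main insulin-restrained factor for glucose output, stood at 6.90, 8.05, 5.32 and 6.23 TPM in NFD livers 1 to 4 and between 9.38 and 16.4 TPM (median 11.6) in the 8 high fat livers. Every high fat liver exceeded every NFD liver, by 0.81 ± 0.11 (SE, adjusted p = 0.0028) on the log2 scale (0.63 in HFD and 0.99 in NAC_HFD). Foxo3, a related factor, rose in the same way by 0.57 ± 0.11 (SE, adjusted p = 0.0137), again without overlap, and both kept their calls without any 1 library.

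Irs1, an adaptor of the insulin receptor, stood at 12.2, 14.8, 16.5 and 10.7 TPM in NFD livers 1 to 4 and between 7.09 and 10.5 TPM (median 9.23) in the 8 high fat livers, a change of -0.51 ± 0.12 (SE, adjusted p = 0.0229). Its high fat livers were all below the NFD range, but it did not pass without NFD replicate 2 (adjusted p = 0.0636) or without NFD replicate 3 (adjusted p = 0.0724). Igfbp2, which binds insulin-like growth factors in blood, changed by -0.91 ± 0.22 (SE, adjusted p = 0.0359) with overlapping libraries (-1.28 in HFD and -0.54 in NAC_HFD), and it did not pass in 8 of the 12 fits that left out 1 library (adjusted p up to 0.0912, without NFD replicate 3). Fbp1, an enzyme of glucose synthesis, stood at 485, 578, 509 and 455 TPM in NFD livers 1 to 4 and between 316 and 429.7 TPM (median 391) in the 8 high fat livers, a change of -0.41 ± 0.10 (SE, adjusted p = 0.0364). No high fat liver reached the NFD range, although Fbp1 did not pass in 7 of the 12 fits that left out 1 library (adjusted p up to 0.0997, without NFD replicate 2). Pfkfb1, which makes and removes the regulator fructose 2,6-bisphosphate, was higher by 0.47 ± 0.12 (SE, adjusted p = 0.0418), and it did not pass in 11 of the 12 fits that left out 1 library (adjusted p up to 0.119, without NFD replicate 1). Pck1, Irs2 and Igfbp1 did not pass, with adjusted p of 0.113, 0.381 and 0.376.

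The sterol efflux pump was higher. Abcg5 stood at 23.6, 27.8, 20.2 and 17.6 TPM in NFD livers 1 to 4 and between 28.3 and 49.3 TPM (median 34.1) in the 8 high fat livers, a change of 0.65 ± 0.14 (SE, adjusted p = 0.0174). Its partner Abcg8, the other subunit of the pump, stood at 21.8, 22.8, 19.4 and 18.3 TPM in NFD livers 1 to 4 and between 26.7 and 54.8 TPM (median 34.4) in the 8 high fat livers, a change of 0.80 ± 0.15 (SE, adjusted p = 0.0102). All 8 high fat livers were above all NFD livers for both subunits, which lie side by side on chromosome 17. Their annotated spans overlap (chr17:84658174-84683011 and chr17:84676302-84700333), and no source used here says whether strand was counted, so reads from the shared stretch may have gone to either gene. Abcg5 did not pass without NFD replicate 3 (adjusted p = 0.0511). Akr1d1, a reductase of bile acid synthesis, changed by 0.80 ± 0.20 (SE, adjusted p = 0.039) with overlapping libraries, and it did not pass in 8 of the 12 fits that left out 1 library (adjusted p up to 0.0996, without NFD replicate 3). These were 3 of 23 tested members of the sterol efflux and bile acid list, whose median of 0.05 changed sign with scaling (-0.03 to 0.08). The bile acid enzymes Cyp7a1 and Cyp8b1 were at log2 fold changes of -0.11 (adjusted p = 0.855) and -0.79 (adjusted p = 0.139). Of 24 tested cholesterol synthesis and LDL uptake genes none passed in limma, 4 had an unadjusted p under 0.05, 20 were negative, and the median was -0.18. That median was -0.0087 in HFD and -0.44 in NAC_HFD, and it ranged from -0.35 to -0.03 over the fits that left out 1 library.

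Of the lipid storage genes, Cd36, Mogat1 and Fitm1 had larger values in HFD than in NAC_HFD livers, and none of the 3 passed the test between these groups. Cd36, the fatty acid carrier, stood at 15.9, 16.1, 11.1 and 21.0 TPM in NFD livers, 77.8, 69.4, 40.1 and 65.9 TPM in HFD livers and 24.5, 12.1, 17.9 and 42.2 TPM in NAC_HFD livers. The HFD libraries were clear of the NFD range and the NAC_HFD libraries overlapped it. The pooled change was 1.18 ± 0.29 (SE, adjusted p = 0.0406), and it did not pass in 8 of the 12 fits that left out 1 library (adjusted p up to 0.111, without NFD replicate 3). Against NFD alone Cd36 changed by 1.91 in HFD and 0.45 in NAC_HFD, and the test between the high fat groups gave an adjusted p of 0.088.

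Mogat1, a monoacylglycerol acyltransferase, had its HFD libraries at 1.34 to 4.20 TPM, its NAC_HFD libraries at 0.31 to 0.92 TPM and its NFD libraries at 0.17 to 0.39 TPM. Its pooled change was 0.99 ± 0.18 (SE, adjusted p = 0.00952) (1.55 in HFD and 0.44 in NAC_HFD), with an adjusted p of 0.0515 between the high fat groups. Mogat1 reached 1 TPM only in the HFD libraries, so it entered the test through the group where it was high. With no filter its adjusted p in limma for the pooled change was 0.0256. Fitm1, a lipid droplet protein, changed by 1.01 ± 0.20 (SE, adjusted p = 0.0173) (1.37 in HFD and 0.66 in NAC_HFD). Together Cd36 and Fitm1 were the called members among 27 tested genes of lipid droplets and fatty acid uptake, and 3 of 11 PPARgamma targets of fatty liver were called. Plin2 and Cidec, coats of lipid droplets, did not pass (adjusted p = 1 and 0.877), nor did Pparg (0.722). Dgat1, a final enzyme of triglyceride synthesis, was lower by 0.47 on the log2 scale (adjusted p = 0.0165) in all 8 high fat livers, and did not pass without NFD replicate 3 (adjusted p = 0.0505).

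Fatty acid oxidation and PPARalpha targets gave 1 higher and 2 lower among 37 tested. Hadh, a mitochondrial beta-oxidation enzyme, stood at 143, 126, 112 and 118 TPM in NFD livers 1 to 4 and between 134 and 236 TPM (median 195) in the 8 high fat livers, a change of 0.59 ± 0.11 (SE, adjusted p = 0.011). Its lowest high fat library, NAC_HFD replicate 2, lay within the NFD range. Ehhadh, a peroxisomal beta-oxidation enzyme, changed by -1.28 ± 0.33 (SE, adjusted p = 0.0464). NFD replicate 2 (151 TPM) was far below the other NFD livers (370.0 to 640.2 TPM) and within the high fat range, and Ehhadh did not pass in 11 of the 12 fits that left out 1 library (adjusted p up to 0.124, without NFD replicate 3). Cyp4a31, a fatty acid hydroxylase with close copies in its cluster, changed by -1.27 ± 0.23 (SE, adjusted p = 0.0115) and kept its call without any 1 library. Its NFD replicate 2, at 26.4 TPM, was the only NFD library inside the high fat range.

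The lipogenic list had no called member in limma among 19 tested and 1 at an unadjusted p under 0.05, with a median of -0.03. Fasn, Acaca, Scd1, Srebf1 and Elovl6 had log2 fold changes of -0.40, -0.24, 0.97, 0.55 and -0.61, with adjusted p between 0.271 and 0.599. Their NFD libraries were widely spread: Scd1 ranged from 299 to 2033 TPM within NFD. Cpt1a and Ppara, of fatty acid oxidation, were at 0.12 and 0.45 and did not pass. Vnn1, another PPARalpha target, was at 0.74 with an adjusted p of 0.053.

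Drug-metabolising genes formed the list with the most calls, 8 higher and 3 lower of 36 tested. Nr1i2, which encodes the xenobiotic receptor PXR, stood at 19.6, 28.0, 18.9 and 21.1 TPM in NFD livers 1 to 4 and between 30.3 and 36.7 TPM (median 34.3) in the 8 high fat livers. All high fat livers were above the NFD livers, by 0.63 ± 0.10 (SE, adjusted p = 0.00451) on the log2 scale (0.67 in HFD and 0.59 in NAC_HFD). Por, the reductase that supplies electrons to P450 enzymes, stood at 286, 269, 218 and 256 TPM in NFD livers 1 to 4 and between 317 and 509 TPM (median 358) in the 8 high fat livers, a change of 0.56 ± 0.11 (SE, adjusted p = 0.0126). Its groups did not overlap. Nr1i3, which encodes CAR, did not pass (0.09, adjusted p = 0.765): its HFD livers were at 178 to 234 TPM, above every NFD liver, and its NAC_HFD livers at 84.1 to 163 TPM, within or below the NFD range.

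Cyp2e1, the ethanol-inducible P450, stood at 7096, 5891, 5627 and 5898 TPM in NFD livers 1 to 4 and between 6558 and 10053 TPM (median 8447) in the 8 high fat livers, a change of 0.44 ± 0.09 (SE, adjusted p = 0.0165). HFD replicate 2 lay within the NFD range and the NAC_HFD livers were the highest of all. The sulfotransferase Sult5a1 changed by 0.76 ± 0.14 (SE, adjusted p = 0.0106), and Sult1b1, outside the list, by 0.92 ± 0.12 (SE, adjusted p = 0.00166). Both were above NFD in all 8 high fat livers. Carboxylesterases moved both ways: Ces1g was higher by 0.98 ± 0.23 (SE, adjusted p = 0.0334) and Ces2e by 0.76 ± 0.18 (SE, adjusted p = 0.0257), and Ces2a was lower by 0.46 (adjusted p = 0.0259). Ces1g did not pass in 7 of the 12 fits that left out 1 library (adjusted p up to 0.0697, without NFD replicate 4), Ces2e did not pass without NFD replicate 3, NFD replicate 4 or HFD replicate 4 (adjusted p up to 0.0601), and Ces2a did not pass without NFD replicate 1, NFD replicate 2 or HFD replicate 4 (adjusted p up to 0.0913). Among glucuronosyltransferases, Ugt1a9 and Ugt2b35 were lower by 0.91 and 0.57 (adjusted p = 0.0457 and 0.0444). These last calls each were lost in 10 of 12 fits that left out 1 library, with adjusted p up to 0.124 and 0.132, both without NFD replicate 1. Carboxylesterase and Ugt genes lie in clusters of close copies, so single members are uncertain. Cyp3a11 and Cyp2b10, classical PXR and CAR targets, did not pass (-0.50 and 0.22, adjusted p = 0.254 and 0.615).

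In the lists of liver genes with sex-biased expression, the only calls were the Cyp2b9, Cyp2c69 and Cyp2c40 changes given above. None of 31 male-biased genes passed in limma, and 7 had an unadjusted p under 0.05, which 22.6% of all tested genes reached. Of the 31, 25 were negative, against 6337 of all 11376 tested genes, and the median was -0.32. Of 30 listed female-biased genes only 15 were tested. Of these 12 were positive, with a median of 0.63 (0.39 without NFD replicate 3), and 1 was called higher and 2 lower. A gene can pass the floor of 1 TPM in 4 libraries through the libraries where it is high. The number of positive genes and the median may therefore lean upward. The same 4 high fat libraries stood apart in both lists. In HFD replicates 1 and 2 and NAC_HFD replicates 3 and 4 the mean log2(TPM + 1) of the male-biased genes was 7.25 to 7.53, against 8.13 to 8.55 in the other 8 libraries. That of the female-biased genes was 3.17 to 3.55 in these 4 and 2.03 to 2.74 in the others. The male-biased genes varied widely between livers: Mup20, a major urinary protein, ranged from 2850 to 7470 TPM over the 12 libraries. The male-biased steroid enzyme Hsd3b5 was at -0.11 (adjusted p = 0.873).

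Amino acid breakdown was divided, with 5 genes higher and 4 lower of 30 tested and a median of -0.11. Without NFD replicate 3 the calls were 2 higher and 2 lower, and the median turned to 0.10. Prodh, the first enzyme of proline breakdown, stood at 54.9, 49.4, 53.6 and 53.3 TPM in NFD livers 1 to 4 and between 74.6 and 102 TPM (median 82.7) in the 8 high fat livers, a change of 0.67 ± 0.10 (SE, adjusted p = 0.00392). Its NFD livers lay within a few TPM of each other, below every high fat liver. Aldh4a1, the next enzyme of the same path, changed by 0.34 ± 0.08 (SE, adjusted p = 0.0224) without overlap and did not pass without NFD replicate 1, NFD replicate 3 or HFD replicate 1 (adjusted p up to 0.0668). The 3 called enzymes of tryptophan and lysine breakdown were slightly higher: Kmo by 0.38 (adjusted p = 0.0224), Haao by 0.34 (0.0397) and Gcdh by 0.29 (0.0334). Kmo did not pass without NFD replicate 1 (adjusted p = 0.0669) or without NFD replicate 4 (adjusted p = 0.0511), Haao did not pass in 9 of the 12 fits that left out 1 library (adjusted p up to 0.104, without NFD replicate 1), and Gcdh did not pass in 8 of the 12 fits that left out 1 library (adjusted p up to 0.0715, without NFD replicate 1). Besides Asl, Sdsl and Hgd, Nags, which makes the activator of the urea cycle, was lower by 0.45 (adjusted p = 0.0268) with overlapping libraries, and it did not pass in 6 of the 12 fits that left out 1 library (adjusted p up to 0.0842, without NFD replicate 3).

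In methionine and cysteine metabolism 2 of 24 tested genes were higher. Gamt, which makes creatine with a methyl group from S-adenosylmethionine, stood at 71.1, 71.1, 41.4 and 61.9 TPM in NFD livers 1 to 4 and between 82.2 and 128 TPM (median 105) in the 8 high fat livers, a change of 0.76 ± 0.15 (SE, adjusted p = 0.0137) with 0.75 in HFD and 0.76 in NAC_HFD. The groups did not overlap, and NFD replicate 3 was the lowest. Sqor, which oxidises sulfide, changed by 0.47 ± 0.12 (SE, adjusted p = 0.0429), and it did not pass in 9 of the 12 fits that left out 1 library (adjusted p up to 0.117, without NFD replicate 3).

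Glutathione is made from cysteine and is the main thiol antioxidant of hepatocytes. Of its genes and NRF2 targets, 3 of 39 were higher and 2 lower (1 and 0 without NFD replicate 3), with a median of -0.02. Gpx1, a glutathione peroxidase, stood at 1155, 981, 831 and 955 TPM in NFD livers 1 to 4 and between 1154 and 1516 TPM (median 1417) in the 8 high fat livers, a change of 0.51 ± 0.10 (SE, adjusted p = 0.0133). Its lowest high fat liver was just below the highest NFD liver. Gstt1, a glutathione transferase, changed by 0.76 ± 0.16 (SE, adjusted p = 0.0174) and did not pass without NFD replicate 3 (adjusted p = 0.0507). Gss, the last enzyme of glutathione synthesis, changed by -0.49 ± 0.11 (SE, adjusted p = 0.0211) (-0.27 in HFD and -0.70 in NAC_HFD), and it did not pass without NFD replicate 1 (adjusted p = 0.0619) or without NFD replicate 3 (adjusted p = 0.0579). Txnrd1, thioredoxin reductase, changed by -0.37 ± 0.09 (SE, adjusted p = 0.0326) (-0.24 in HFD and -0.50 in NAC_HFD), and it did not pass in 8 of the 12 fits that left out 1 library (adjusted p up to 0.0957, without NFD replicate 3). Nqo1, Hmox1 and Gclc did not pass (adjusted p = 0.956, 0.609 and 0.924).

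Of the markers of pericentral hepatocytes, the cells around the central vein, 6 of 17 tested were higher and none was lower, while the median of the list was -0.03. Without NFD replicate 3 the number called higher was 3 and the median turned to 0.09. By value 8 of the 17 were positive and 9 negative, 2 of the negative ones at an unadjusted p under 0.05 in limma. In NAC_HFD against NFD, 1 member was called lower. Lect2, a secreted hepatokine, stood at 82.5, 89.5, 69.1 and 89.4 TPM in NFD livers 1 to 4 and between 121 and 166 TPM (median 156) in the 8 high fat livers. Its HFD livers lay between 160.4 and 166 TPM, its NAC_HFD livers were between them and NFD, and the change was 0.83 ± 0.09 (SE, adjusted p = 0.000549). Gulo, of vitamin C synthesis, stood at 137, 164, 145 and 147 TPM in NFD livers 1 to 4 and between 164 and 235 TPM (median 212) in the 8 high fat livers, a change of 0.43 ± 0.08 (SE, adjusted p = 0.0126), and Rgn, an enzyme of the same path, at 423, 383, 244 and 350.3 TPM in NFD livers 1 to 4 and between 456 and 562 TPM (median 487) in the 8 high fat livers, a change of 0.54 ± 0.13 (SE, adjusted p = 0.0249). For Gulo and Rgn no high fat liver entered the NFD range, and Rgn did not pass without NFD replicate 3 (adjusted p = 0.0505). Aldh1a1, a retinal dehydrogenase, changed by 0.58 ± 0.15 (SE, adjusted p = 0.0447) and did not pass in 10 of the 12 fits that left out 1 library (adjusted p up to 0.11, without NFD replicate 3). Cyp2e1 was also among the 6. Of 18 periportal markers, Sult5a1 was higher and Asl and Sdsl were lower, with a median of -0.18 that was -0.0057 without NFD replicate 3. Dhrs3, which reduces retinal, rose by 0.50 ± 0.09 (SE, adjusted p = 0.00955) without overlap, so that it and Aldh1a1 were the called genes among 22 of retinoid storage and oxidation.

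Of 52 tested interferon response genes 6 passed, all of them higher, and 46 did not. Of the 52, 48 had a positive log2 fold change, and the median was 0.35 against -0.03 for all tested genes. The median was 0.56 in HFD, with 7 called higher, and 0.18 in NAC_HFD, with 1. Without NFD replicate 3 the count was 13, and over the fits that left out 1 library it ranged from 2 to 13. Free of overlap were Gbp7, a guanylate-binding protein, and Iigp1, an immunity-related GTPase. Gbp7 stood at 4.72, 5.08, 6.22 and 5.79 TPM in NFD livers 1 to 4 and between 7.40 and 13.3 TPM (median 8.02) in the 8 high fat livers, a change of 0.60 ± 0.11 (SE, adjusted p = 0.0106) (0.77 in HFD and 0.44 in NAC_HFD). Iigp1 stood at 111, 104, 118 and 128 TPM in NFD livers 1 to 4 and between 143 and 203 TPM (median 168) in the 8 high fat livers, a change of 0.52 ± 0.10 (SE, adjusted p = 0.0113) (0.56 in HFD and 0.48 in NAC_HFD).

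Zbp1, a sensor of Z-form nucleic acid, changed by 0.83 ± 0.20 (SE, adjusted p = 0.0298) (1.26 in HFD and 0.39 in NAC_HFD). HFD replicate 1 was far above the other libraries at 19.4 TPM, and Zbp1 did not pass without NFD replicate 1, NFD replicate 2 or NFD replicate 4 (adjusted p up to 0.0946). Gbp2 changed by 0.76 ± 0.19 (SE, adjusted p = 0.0336), and it did not pass in 9 of the 12 fits that left out 1 library (adjusted p up to 0.102, without NFD replicate 1). Gbp6 changed by 1.02 ± 0.24 (SE, adjusted p = 0.0337), and it did not pass in 7 of the 12 fits that left out 1 library (adjusted p up to 0.105, without NFD replicate 1). Psmb8, a subunit of the immunoproteasome, changed by 0.57 ± 0.13 (SE, adjusted p = 0.0213), and it did not pass without NFD replicate 1, NFD replicate 2 or NFD replicate 4 (adjusted p up to 0.0797). Gbp genes are near copies of one another, and Gbp10, outside the list, changed by 1.54 ± 0.31 (SE, adjusted p = 0.0196) and did not pass without NFD replicate 1, NFD replicate 2 or NFD replicate 3 (adjusted p up to 0.0589). Isg15, a ubiquitin-like interferon-induced protein, did not pass (0.20, adjusted p = 0.798).

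The upstream sequences of Gbp2 and Gbp7 show the letters that mark many interferon-induced promoters. They are the 250 bases before the RefSeq start (GRCm38.p6, plus strand) at chr3:142620413-142620662 and chr3:142530086-142530335, and capitals mark the match to the core of the interferon-stimulated response element. Its core was searched as 2 copies of GAAA with 2 bases between them. Both matches lie on the opposite strand, so the copies read TTTC in the plus strand printed here. The match begins 59 bases before the start in Gbp2 and 53 bases before it in Gbp7. The window of Psmb8 held no such match, and the other called interferon genes, Zbp1, Gbp6 and Iigp1, had no promoter window to search.
Gbp2: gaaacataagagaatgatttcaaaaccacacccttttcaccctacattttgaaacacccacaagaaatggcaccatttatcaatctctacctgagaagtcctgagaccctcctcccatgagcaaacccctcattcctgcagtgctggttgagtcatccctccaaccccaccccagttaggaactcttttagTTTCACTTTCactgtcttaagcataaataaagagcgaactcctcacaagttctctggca
Gbp7: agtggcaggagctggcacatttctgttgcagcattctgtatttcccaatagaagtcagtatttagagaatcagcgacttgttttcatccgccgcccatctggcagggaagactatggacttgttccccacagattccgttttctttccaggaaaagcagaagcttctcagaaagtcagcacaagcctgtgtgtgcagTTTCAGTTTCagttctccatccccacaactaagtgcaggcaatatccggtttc

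On either strand, this core was found in 3.37% of the 8773 tested genes with a promoter window and in 2.98% of all 32851 windows of the table. It was found in 17 of 36 interferon response genes (47.2%). Among genes called higher it was in 21 of 247 (8.50%), of which 19 were outside the interferon list, and among genes called lower in 7 of 249 (2.81%). The genes called higher with the match included Saa3, Saa4, B2m, Ifi207, Ifi213, Gstt1, Sqor and Dhrs3. The E-box CACGTG was in 9.94% of tested genes, 8.10% of those called higher and 9.24% of those called lower. The STAT core, TTC and GAA with 3 bases between them, was in 7.25%, 7.69% and 3.21%, and the PPAR repeat, 2 copies of AGGTCA with 1 base between them, was in 4 tested genes and in no called gene. These shares are descriptions of letters in a window, with no test.

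Acute phase and inflammation genes gave 4 higher of 34 tested, with Saa4 the largest. Saa3, an inducible serum amyloid A, stood at 6.14, 6.77, 9.64 and 4.71 TPM in NFD livers 1 to 4 and between 7.08 and 25.4 TPM (median 10.2) in the 8 high fat livers, a change of 0.79 ± 0.20 (SE, adjusted p = 0.0397) (1.25 in HFD and 0.32 in NAC_HFD), and it did not pass in 9 of the 12 fits that left out 1 library (adjusted p up to 0.107, without NFD replicate 1). Vcam1, an adhesion molecule for leukocytes, stood at 3.53, 3.54, 3.51 and 3.42 TPM in NFD livers 1 to 4 and between 4.07 and 10.2 TPM (median 6.17) in the 8 high fat livers. The NFD livers were almost equal and below all high fat livers, for a change of 0.63 ± 0.16 (SE, adjusted p = 0.0396), but Vcam1 did not pass in 9 of the 12 fits that left out 1 library (adjusted p up to 0.0947, without NFD replicate 1). Il6ra, the interleukin 6 receptor, changed by 0.53 ± 0.12 (SE, adjusted p = 0.0217) and did not pass without NFD replicate 1 (adjusted p = 0.0571) or without NFD replicate 3 (adjusted p = 0.0671). Saa1 did not pass (adjusted p = 0.932), and HFD replicate 4 alone had 1936 TPM of it. Lcn2, another acute phase gene, was also highest in HFD replicate 4, at 174 TPM, and did not pass (adjusted p = 0.627).

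Among galectins, annexins and S100 proteins, 3 of 21 were higher. Lgals1, galectin 1, stood at 4.43, 3.33, 1.53 and 4.55 TPM in NFD livers, 29.2, 24.9, 16.5 and 32.7 TPM in HFD livers and 8.38, 2.66, 5.28 and 10.5 TPM in NAC_HFD livers. The HFD livers stood well above both other groups. The pooled change was 1.67 ± 0.32 (SE, adjusted p = 0.0161), with 2.61 in HFD and 0.73 in NAC_HFD and an adjusted p of 0.0599 between the high fat groups. Anxa4 and S100a1 were higher by 0.35 and 0.39 (adjusted p = 0.0249 and 0.0449). Anxa4 did not pass without NFD replicate 1, NFD replicate 3 or NFD replicate 4 (adjusted p up to 0.0793), and S100a1 did not pass in 8 of the 12 fits that left out 1 library (adjusted p up to 0.119, without NFD replicate 1).

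Of 20 tested heat shock genes 5 were called lower. All 20 had a negative log2 fold change, under each scaling as well, with a median of -0.40. Across the fits that left out 1 library the number called lower ranged from 3 to 9. Hsph1, a large heat shock protein that resets Hsp70, stood at 118, 96.1, 139 and 112 TPM in NFD livers 1 to 4 and between 46.0 and 83.7 TPM (median 74.9) in the 8 high fat livers. The 8 high fat livers were all below the NFD livers, and NAC_HFD replicates 3 and 4 were the lowest. The change was -0.76 ± 0.13 (SE, adjusted p = 0.00743) (-0.56 in HFD and -0.97 in NAC_HFD). Bag3, a partner of Hsp70 in the removal of damaged proteins, changed by -0.60 ± 0.13 (SE, adjusted p = 0.0181), and Hspa4l, an Hsp110 relative, by -0.54 ± 0.11 (SE, adjusted p = 0.0174). Dnajb1, an Hsp40, changed by -0.53 ± 0.13 (SE, adjusted p = 0.0267), and it did not pass without NFD replicate 1, NFD replicate 3 or HFD replicate 4 (adjusted p up to 0.0913). Chordc1, an Hsp90 co-chaperone, changed by -0.43 ± 0.10 (SE, adjusted p = 0.0268), and it did not pass in 6 of the 12 fits that left out 1 library (adjusted p up to 0.0814, without NFD replicate 1). The list median was -0.27 in HFD, with 0 members called in limma and 5 at an unadjusted p under 0.05, and -0.53 in NAC_HFD, with 11 called lower.

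Ribosomal protein genes also leaned down, with 42 of 43 negative and a median of -0.26. Of these, 4 were called lower, among them Rps18 by 0.42 (adjusted p = 0.0201), Rps19 by 0.42 (0.0179) and Rplp2 by 0.39 (0.0423). Rps18 stood at 282, 279.9, 273 and 228 TPM in NFD livers 1 to 4 and between 174 and 225 TPM (median 203) in the 8 high fat livers, and its groups did not overlap. The count depended on the libraries and the scaling: none was called without NFD replicate 3, up to 28 with another library left out, and 7 to 19 under the other scalings. In NFD replicate 4 Rps19 was well below its level in the other NFD livers. Many ribosomal protein genes have processed copies elsewhere in the genome, which adds uncertainty to single members. Of 27 proteasome subunits 26 were negative, with a median of -0.18 (-0.09 without NFD replicate 3). None passed in limma, and 7 had an unadjusted p under 0.05.

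Endoplasmic reticulum stress genes were mixed, with 1 higher and 1 lower of 32. Chac1, which degrades glutathione, stood at 1.45, 0.43, 0.19 and 0.71 TPM in NFD livers 1 to 4 and between 1.22 and 4.82 TPM (median 2.18) in the 8 high fat livers. It was called higher in limma (adjusted p = 0.0102), with log2 fold changes of 0.58 in HFD and 1.42 in NAC_HFD. NFD replicate 1 lay within the high fat range. Chac1 was highest in the NAC_HFD livers, at 2.41 to 4.82 TPM, and the difference from HFD had an adjusted p of 0.0929. Atf4, the factor that drives Chac1 in stressed cells, stood at 67.5, 47.8, 47.6 and 49.1 TPM in NFD livers 1 to 4 and between 32.9 and 43.8 TPM (median 39.9) in the 8 high fat livers, a change of -0.41 ± 0.10 (SE, adjusted p = 0.0369). The mRNA of Atf4 was below the NFD range in every high fat liver, and Atf4 did not pass in 7 of the 12 fits that left out 1 library (adjusted p up to 0.11, without NFD replicate 1).

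A set of 4 tubulins, named here after their values were seen, was called lower. Tubb4b stood at 74.5, 78.5, 125 and 73.1 TPM in NFD livers 1 to 4 and between 31.7 and 62.3 TPM (median 48.6) in the 8 high fat livers, a change of -0.91 ± 0.16 (SE, adjusted p = 0.00779) (-0.63 in HFD and -1.18 in NAC_HFD), and Tuba4a changed by -0.72 ± 0.13 (SE, adjusted p = 0.00846). Both kept their calls without NFD replicate 3, their highest NFD library. Tuba1c and Tubb5 were lower by 0.76 and 0.57 (adjusted p = 0.0214 and 0.0224). Tuba1c did not pass without NFD replicate 2 (adjusted p = 0.0523) or without NFD replicate 3 (adjusted p = 0.0579), and Tubb5 did not pass without NFD replicate 1, NFD replicate 2 or NFD replicate 3 (adjusted p up to 0.0758). Tubulin genes are close copies, so the share of each is uncertain.

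**Figure D3:**
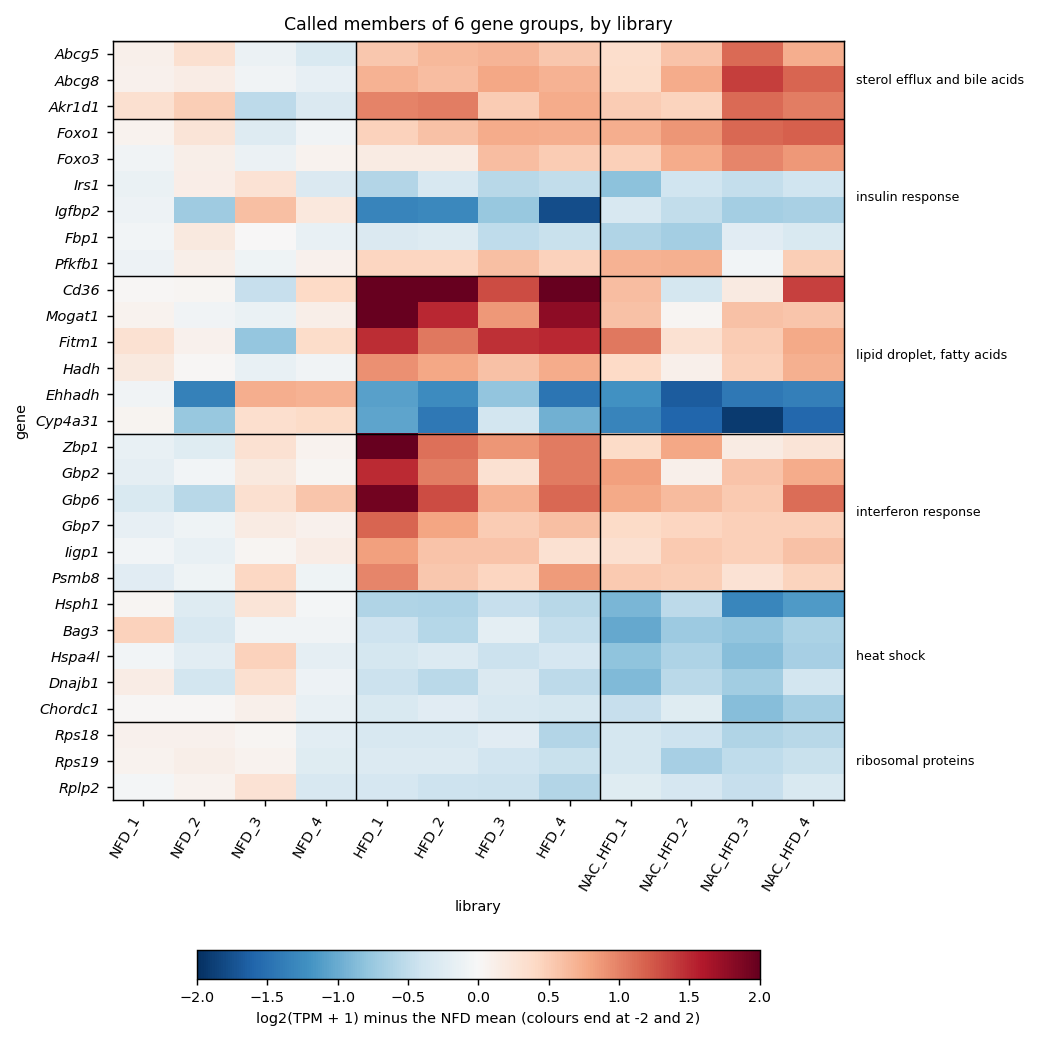
Called members of 6 gene groups, as named in the text, in the 12 libraries, as log2(TPM + 1) minus the mean of the 4 NFD libraries (red higher, blue lower). Cd36, Mogat1 and the interferon genes are deepest red in the HFD columns, while Hsph1 and Cyp4a31 are deepest blue in the NAC_HFD columns; Ehhadh in NFD replicate 2, at 151 TPM, is as low as in the high fat livers.

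A set of 8 called genes was chosen for the smallest p between the high fat groups. They were taken in equal number from genes higher in HFD and genes higher in NAC_HFD. The set is therefore not the 8 smallest p of all called genes: Mogat1 and Lgals1, given above, had smaller p than some members. By value each of the 8 had the same direction in both high fat groups but unequal sizes, and none passed the test of that difference. Gpcpd1, a phosphodiesterase of choline lipid breakdown, stood at 25.1, 21.4, 17.4 and 20.4 TPM in NFD livers, 31.6, 24.2, 33.6 and 43.5 TPM in HFD livers and 59.4, 56.5, 73.0 and 59.2 TPM in NAC_HFD livers. Its NAC_HFD livers were above all others. The pooled change was 1.07 ± 0.13 (SE, adjusted p = 0.00166), with 0.61 in HFD and 1.52 in NAC_HFD, and the difference had an adjusted p of 0.0515. Hsd3b3, a steroid dehydrogenase, P2ry1, a receptor for ADP, and MSTRG.6649, an assembled locus with no gene name in the file, were also higher in NAC_HFD than in HFD (adjusted p of the difference 0.0599, 0.0599 and 0.0831). In the pooled test P2ry1 did not pass in 11 of the 12 fits that left out 1 library (adjusted p up to 0.135, without NFD replicate 3), and MSTRG.6649 did not pass without NFD replicate 1 (adjusted p = 0.0681).

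Sema5b, a semaphorin, stood at 0.14 to 0.56 TPM in NFD livers, 2.16 to 2.72 TPM in HFD livers and 0.40 to 1.10 TPM in NAC_HFD livers. The HFD livers were clear of both other groups. Sema5b and Stap1 reached 1 TPM only in high fat libraries and so entered the test through them. With no filter the adjusted p in limma of their pooled changes were 0.0116 and 0.0406. The difference of Sema5b between HFD and NAC_HFD had an adjusted p of 0.0515. Stap1, an adaptor of receptor kinases, and Pmm1, a phosphomannomutase, had values of 0.94 and 0.84 in HFD and of 0.13 and 0.14 in NAC_HFD. Stap1 did not pass without NFD replicate 2 (adjusted p = 0.059) or without NFD replicate 3 (adjusted p = 0.0535), and Pmm1 did not pass without NFD replicate 3 (adjusted p = 0.0603). Cnpy4, a chaperone of Toll-like receptors, was at -0.04 in HFD and -0.61 in NAC_HFD, so its pooled call of -0.33 (adjusted p = 0.0418) came with no fall in HFD by value, and it did not pass in 9 of the 12 fits that left out 1 library (adjusted p up to 0.112, without NFD replicate 1). Over all tested genes HFD exceeded NAC_HFD by a median of 0.08 on the log2 scale, and 68.5% of genes were higher in HFD. NAC_HFD libraries had 10864 to 11071 genes at 1 TPM or more and HFD libraries 11098 to 11316. The general level of the libraries thus moved with this difference. After median-of-ratios scaling or quantile normalization, HFD against NAC_HFD again gave 0 calls in limma. The part of the general level in the values given here was not tested.

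**Figure D4:**
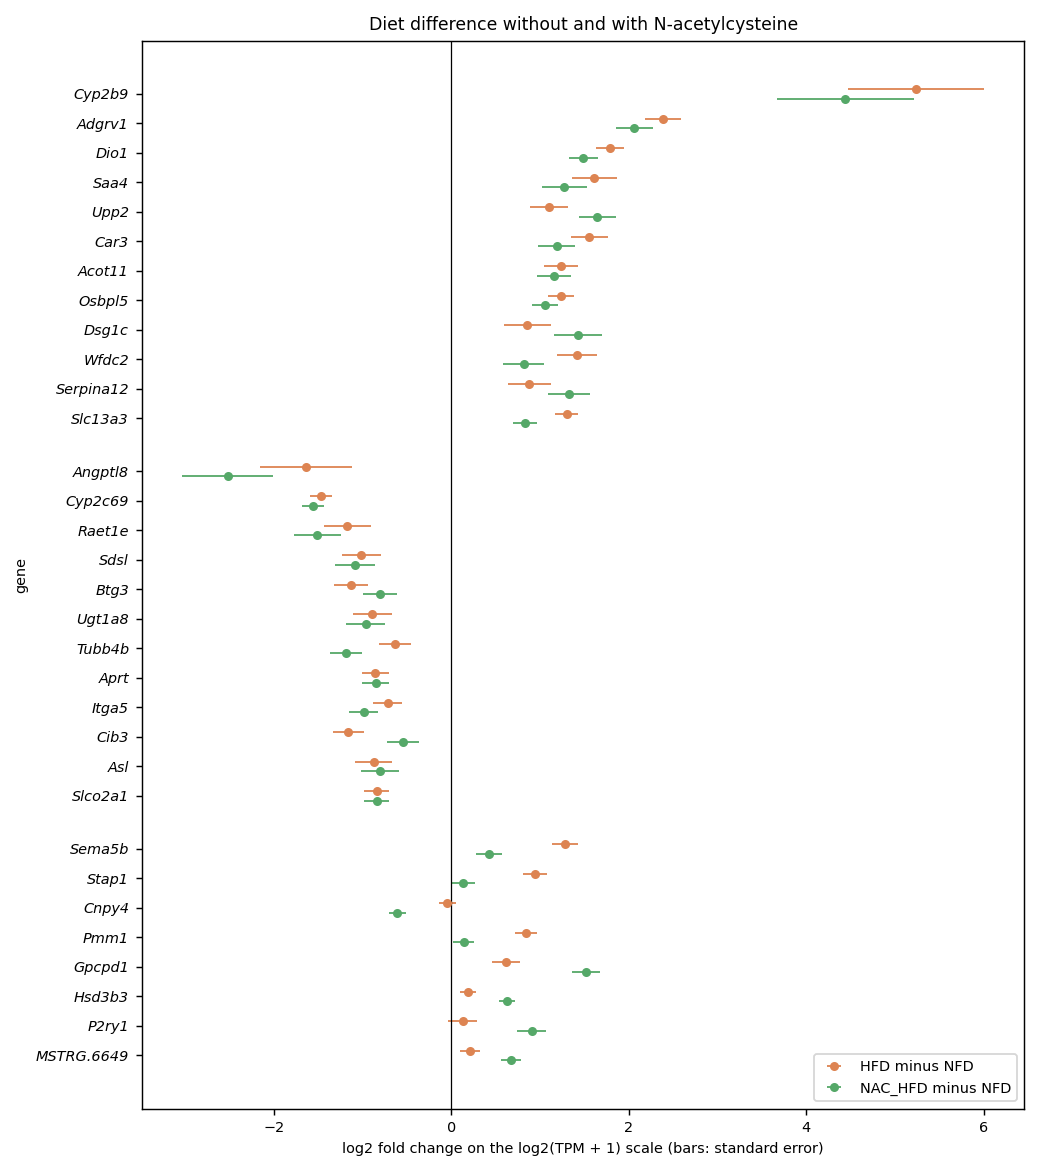
Log2 fold change against NFD in HFD (orange) and NAC_HFD (green) livers, with standard errors. Shown are the 12 leading rises, the 12 leading falls and 8 called genes chosen for the smallest p between the high fat groups. The 8 were taken in equal number from genes higher in HFD and genes higher in NAC_HFD. The bars of Dio1 (1.79 and 1.49) and Cyp2c69 (-1.47 and -1.55) lie close together, while those of Gpcpd1 (0.61 and 1.52) and Sema5b (1.28 and 0.43) lie apart.

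Few markers of other cell types passed the test. None of 17 Kupffer cell markers passed in limma, 1 had an unadjusted p under 0.05, 15 were positive, and their summed level was 308 to 411 TPM in NFD and 245 to 480 TPM in high fat livers. The median of the Kupffer cell markers was 0.48 in HFD and -0.15 in NAC_HFD. The interferon medians were 0.56 and 0.18, and the part of Kupffer cell RNA in them was not tested. Of 9 tested monocyte and macrophage markers only Plac8 was higher (0.72 ± 0.15 (SE, adjusted p = 0.0179)), and it did not pass without NFD replicate 3 (adjusted p = 0.0558). Fn1, fibronectin, which hepatocytes also make, held most of the summed level of that list, at 507 to 838 TPM. The other 17 markers in the table summed to 57.1 to 72.8 TPM in NFD, 59.96 to 83.3 TPM in HFD and 51.2 to 64.3 TPM in NAC_HFD livers, and their part in the interferon and acute phase results was not tested. Of 18 sinusoidal endothelial and 17 stellate or fibroblast markers none passed in limma, with 1 and 2 at an unadjusted p under 0.05. None of 23 collagen and fibrosis genes passed, with 3 at an unadjusted p under 0.05. Of 3 tested dendritic cell markers 2 were positive and 1 was negative, with a median of 0.11. The negative one, Zbtb46, was lower by 0.48 (adjusted p = 0.022). It did not pass without NFD replicate 1 (adjusted p = 0.0669) or without NFD replicate 4 (adjusted p = 0.0528). Of 8 tested cholangiocyte markers 3 were positive and 5 negative, with a median of -0.14. Only Tstd1 was called, higher by 0.58 ± 0.16 (SE, adjusted p = 0.0462). It did not pass in 9 of the 12 fits that left out 1 library (adjusted p up to 0.12, without NFD replicate 3).

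Car3 is also abundant in fat tissue. Of the 15 fat tissue markers in the table, 9 were tested, 7 of them with positive values and a median of 0.40 (0.24 without NFD replicate 3). Car3 alone passed, and 5 had an unadjusted p under 0.05 with higher levels. Cfd, the fat-derived complement factor adipsin, ranged from 0.05 to 32.7 TPM over the 12 libraries and Cidea, a lipid droplet protein, from 0 to 3.49 TPM. Adipoq and Plin1, which define adipocytes, did not exceed 0.15 and 0.27 TPM in any library, and the part of fat tissue in these results was not tested. Cela1 was higher by 0.66 ± 0.15 (SE, adjusted p = 0.0227) and did not pass without NFD replicate 1 (adjusted p = 0.0556) or without NFD replicate 4 (adjusted p = 0.0527). The other 10 exocrine pancreas markers in the table were below 1 TPM in all 12 libraries. T and NK cell, B cell and neutrophil markers were mostly under the floor, with 2, 0 and 2 tested genes, no call in limma and 0 at an unadjusted p under 0.05. The 7 tested erythroid markers had a median of -0.35 with no call in limma and 0 at an unadjusted p under 0.05, and their sum ranged from 860 to 2022 TPM in NFD and from 349 to 1773 TPM in high fat livers.

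Most called genes belonged to none of the 50 lists: 281 of the 333 higher and 268 of the 296 lower. Among those named after their values were seen, Serpina6, the corticosteroid carrier of blood, was higher by 0.93 ± 0.22 (SE, adjusted p = 0.0296), and Cebpb, a liver transcription factor, by 0.93 ± 0.20 (SE, adjusted p = 0.0217). Both were higher in all 8 high fat livers. Serpina6 did not pass in 6 of the 12 fits that left out 1 library (adjusted p up to 0.0561, without HFD replicate 1), and Cebpb did not pass without NFD replicate 3 (adjusted p = 0.0537) or without NFD replicate 4 (adjusted p = 0.0512). Slc22a30 and Slc22a28, organic anion carriers of one gene cluster, were lower by 0.74 and 0.73 (adjusted p = 0.0192 and 0.0432). Slc22a28 did not pass in 9 of the 12 fits that left out 1 library (adjusted p up to 0.122, without NFD replicate 1). Sult1c2, a sulfotransferase, was higher by 0.99 ± 0.25 (SE, adjusted p = 0.0387) and did not pass in 9 of the 12 fits that left out 1 library (adjusted p up to 0.0991, without NFD replicate 3).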

How the data were processed

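Liver RNA of 12 libraries, 4 each from NFD, HFD and NAC_HFD mice, was analysed from the gene table of TPM made and deposited by the authors. Per the submitters' processing notes, fastp, HISAT and RSEM were used with build GRCm38 (versions and settings not given in the sources used here). TPM divides by length and library total, so the depth of each library is unknown and no counting interval is given.

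Genes with at least 1 TPM in at least 4 libraries were tested on log2(TPM + 1) with limma 3.58.1 in R 4.3.3 (moderated with a trend and robustly), in one model of 3 group means. The main contrast is the mean of HFD and NAC_HFD minus NFD. Tests were two-sided, with Benjamini-Hochberg adjustment over all 11376 genes in each comparison and a threshold of 0.05. The fit was first tested on simulated data. RefSeq positions (GRCm38.p6) were matched by symbol for 10843 genes (95.3%). Promoter windows are the 250 bases before the RefSeq start.

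Named by rule were 139 genes: the 12 highest and 12 lowest changes and the 6 most abundant in each direction among called genes without overlap, a panel of 60, the 4 smallest p-values of each list, and the 4 called genes in each direction with the smallest p between HFD and NAC_HFD. A further 24 were named after their values were seen. A few genes that the rule or a list would name are not reported here, and they remain in the counts over lists. The members, the panel and the 50 lists (32 of functions, 18 of cell types) were chosen with earlier results of these data known. Alternatives covered pseudocount, filter, scaling, model, an exact permutation test, a replicate block and each library left out; a 3-unit heat shock motif was added after seeing the data.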

Additional observations from a re-analysis of the deposited data

Results flagged for a closer look

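In 489 groups of 4 libraries examined for the named genes, 28 held a library far from the other 3 (a gap above Dixon's 95% critical value for 4 samples); chance alone marks about 1 in 20 groups. NFD replicate 3 held 8 of the 28. It was the highest NFD liver for Asl (744.57 TPM, next 373 TPM), Sdsl (14.16, next 6.17), Tubb4b (125.3, next 78.5), Hgd (440.85, next 292), Apom (172.57), Dgat1 (11.08) and Slc22a30 (225.05), and the lowest for Igfals (39.46). NFD replicate 2 held 5 and was the highest for Serpina12 (7.13 TPM), Cib3 (5.52), Srebf1 (27.44), Pdk4 (1.57) and Anxa4 (20.77). NFD replicate 4 was the lowest for Rps19 (97.05 TPM) and Tubb5 (20.79), and NFD replicate 1 the highest for Atf4 (67.54).

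Among high fat livers, HFD replicate 4 held 1935.85 TPM of Saa1, against 38.1 to 119 TPM in the other HFD livers, and was the lowest for Cyp3a11 (439.17). HFD replicate 1 was the highest for Zbp1 (19.37 TPM), HFD replicate 2 the highest for Tuba1c (41.82) and the lowest for Fitm1 (25.79), and HFD replicate 3 the lowest for Lect2 (160.39). NAC_HFD replicate 2 was the lowest for Mogat1 (0.31 TPM) and the highest for Elovl6 (21.66) and Slc22a30 (124.56). NAC_HFD replicate 1 was the highest for Nags (26.12 TPM) and Tuba1c (26.35), and NAC_HFD replicate 3 for Sdsl (3.03).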

How the results depend on the processing

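The depth behind the TPM values is unknown, and 4 NFD libraries carry all diet comparisons, so the calls rest on few controls. Over both high fat groups against NFD (629 genes, 333 higher and 296 lower) the count fell to 384 (215 and 169) with no filter on 19252 genes, and to 397 (229 and 168) with 2 group means, where the difference between HFD and NAC_HFD enters the spread. The exact permutation test called 0 genes in either direction, 0 of them without overlap: its smallest two-sided p is 0.00202, which 359 genes reached, and the smallest adjusted p was 0.064. An unadjusted p under 0.05 was found for 2299 genes. With no filter, HFD against NFD gave 168 calls and NAC_HFD against NFD 289.

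Leaving out 1 library gave 265 to 739 calls in all, 174 to 384 higher and 91 to 355 lower. Calls without overlap ranged from 210 to 466, HFD against NFD from 90 to 375 and NAC_HFD against NFD from 211 to 618. HFD against NAC_HFD, with 0 calls in limma and 1870 at an unadjusted p under 0.05, gave 0 to 64, and a pseudocount of 5 gave 24. Pseudocounts of 0.1 and 5 gave 626 calls each in the diet comparison, a floor of 5 TPM gave 510, and the scalings 668 to 769.

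Of 121 named genes called, 53 were called whichever library was left out, 53 lost the call without NFD replicate 3 and 51 without NFD replicate 1. No called named gene changed direction in any alternative run. Of 2352 list counts recomputed, 2030 stayed within 1.5 times, 221 were smaller and 101 larger.

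Libraries with the same replicate number showed no shared deviation over all tested genes. The correlations of 12 same-number pairs lay between -0.173 and 0.179, and those of 36 other pairs between -0.247 and 0.219. Such correlations cannot show a pairing that touches few genes, so whether the numbers pair the samples is not known. With the replicate number as a block, 408 genes (232 higher and 176 lower) passed against NFD, 372 of them shared with the fit without it, and 3 passed between HFD and NAC_HFD.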

Other observations

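All 7 tested MHC class II genes, which present antigen, had positive log2 fold changes with a median of 0.29 (0.54 in HFD and 0.13 in NAC_HFD). None passed in limma, and 2 had an unadjusted p under 0.05. Of 35 complement and coagulation genes, F11, a clotting factor made by hepatocytes, was higher by 0.49 ± 0.10 (SE, adjusted p = 0.016), and it did not pass without NFD replicate 1 (adjusted p = 0.0556). The 48 nuclear-encoded respiratory chain genes and the 13 mitochondrially encoded genes held no call in limma, with 4 and 1 at an unadjusted p under 0.05, and medians of -0.0034 and 0.01 on the log2 scale. None of 18 circadian clock genes, 17 immediate early genes and 19 iron and metallothionein genes passed in limma (4, 2 and 4 at an unadjusted p under 0.05). Igf1, Ghr and Igfals, of the growth hormone axis, were at 0.07, 0.36 and -0.08 with adjusted p of 0.749, 0.121 and 0.79. Fgf21, a hepatokine of fasting and fat feeding, was at 0.51 in HFD and -0.42 in NAC_HFD, with an adjusted p of 0.11 between them.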
